A study of Mus musculus with 48 samples.

Results

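The 34 genes described here mark the cells that build brain blood vessels, and were taken by symbol from a set list: 25 are typical of endothelial cells, which line the vessel, and 9 of mural cells, the pericytes and smooth muscle cells that wrap it. All 34 were among the 24421 gene symbols in each of the 6 deposited tables of normalized read counts. The libraries, 48 in all, came from mouse cells labelled astrocytes, so these genes were read in samples named for another cell type. In the cortex (CX), hippocampus (HC) and olfactory bulb (OB), groups of 3 libraries were made at postnatal day 1 (P1), P7 and P14, with 4 at P14 in the cortex. No genotype or treatment is given for these developmental groups. At P28, animals labelled Gabbr1 control were compared with Gabbr1 cKO animals, in which a subunit of the metabotropic GABA receptor is deleted conditionally. Controls and cKO animals gave 4 and 4 libraries of cortex, 2 and 4 of hippocampus and 3 and 3 of olfactory bulb. Tamoxifen is given as the treatment of all P28 hippocampus and olfactory bulb libraries and of cortex control replicates 3 and 4 and cKO replicate 4, whose labels are of a second style, here called the later round of deposit. The labels of the first-round cortex libraries (control replicates 1 and 2, cKO replicates 1, 2 and 3) give no treatment. No label names the strain, the promoter that drives the deletion, how the astrocytes were separated after dissociation, or whether animals were pooled. Since nothing says that libraries came from separate animals, p-values measure the spread between these libraries.

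Brain endothelial cells are joined by tight junctions and carry transporters that admit nutrients and return drugs to the blood, which together form the blood-brain barrier. They grow in response to vascular endothelial growth factor and angiopoietin through receptor tyrosine kinases. Pericytes are recruited by platelet-derived growth factor through the receptor Pdgfrb, and astrocyte endfeet lie against the outer face of both cells. The first postnatal weeks are a time of vessel growth and barrier maturation in the rodent brain.

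Read totals ran from 1773226 to 15008466 per library, and every library was read as the authors' normalized count, a read count divided by 1 size factor per library. The ribosomal RNA precursor Rn45s took 13.7% to 38.0% of reads in 46 libraries, but only 0.594% in a P28 hippocampal library (cKO replicate 2) and 0.476% in a P28 olfactory bulb library (control replicate 2). The 10 astrocyte markers were present in every library, and from P1 to P14 limma called 9 of them higher in the cortex and 10 in each other region. Of all tested genes, 24.0%, 21.0% and 24.8% were called higher in cortex, hippocampus and olfactory bulb. A level per exon length was set for each gene from its normalized count per exon base, scaled to the same total in every library, without Rn45s. On that scale the 10 astrocyte genes summed to between 1406 and 64286 in the developmental libraries, and the 25 endothelial genes to between 246 and 2164. Bsg, which many cell types make, took a large part of the endothelial sum, with means of 426, 402 and 440 in cortex, hippocampus and olfactory bulb. In hippocampus P14 that sum was 526 to 766 although 10 to 16 of the 25 genes had no read. In a check of the labels, deposited Gabbr1 counts were 1746, 1930.1, 1159 and 927 in cortex controls against 89.8, 96.5, 134 and 211 in cKO libraries (log2 fold change -3.45, SE 0.29, limma adjusted p = 4.4e-05). Gabbr1 was also lower in every cKO library of the hippocampus and olfactory bulb, but did not pass the test over all genes there (limma adjusted p = 0.94 and 0.88).

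Promoter sequences are shown for 5 genes whose levels carry the results: 2 receptors, a junction gene and 2 transporters, chosen because Flt1, Kdr and Cldn5 were called in opposite directions in hippocampus and olfactory bulb between P7 and P14 while Mfsd2a and Slco1a4 were not. RefSeq promoter windows on GRCm38.p6 were at hand for 22 of the 34 genes, and each runs from 250 bases before to 50 bases after a start site. Sequences are written 5′ to 3′ on the gene's strand. Capitals mark the ETS motif ACNGGAAG, bound by factors such as Ets1 and Erg, and the GC box GGGCGG, bound by Sp1, found on either strand. Shorter ETS sequences such as GGAA, which also occur in these windows, were not sought or marked. Flt1, the decoy receptor for vascular endothelial growth factor (chr5:147725962-147726261, minus strand), held 1 ETS motif and 3 GC boxes.
Flt1: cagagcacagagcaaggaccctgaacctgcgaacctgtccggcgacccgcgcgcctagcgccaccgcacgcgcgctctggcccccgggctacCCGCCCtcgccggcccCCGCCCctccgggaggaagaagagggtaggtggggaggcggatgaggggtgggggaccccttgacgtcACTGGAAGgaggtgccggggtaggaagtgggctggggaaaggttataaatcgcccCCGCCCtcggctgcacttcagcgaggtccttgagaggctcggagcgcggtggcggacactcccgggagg
Kdr, the main signalling receptor for the same factor (chr5:75978406-75978705, minus strand), held 2 GC boxes and no ETS motif of this form.
Kdr: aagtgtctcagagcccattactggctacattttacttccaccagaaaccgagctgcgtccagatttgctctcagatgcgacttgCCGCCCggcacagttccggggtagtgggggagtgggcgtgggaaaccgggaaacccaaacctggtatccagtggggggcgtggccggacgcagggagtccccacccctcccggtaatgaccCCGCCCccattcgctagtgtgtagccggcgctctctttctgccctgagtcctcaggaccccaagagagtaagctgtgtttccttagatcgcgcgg
Cldn5, the chief claudin of brain endothelial tight junctions (chr16:18776597-18776896, plus strand), held 1 GC box.
Cldn5: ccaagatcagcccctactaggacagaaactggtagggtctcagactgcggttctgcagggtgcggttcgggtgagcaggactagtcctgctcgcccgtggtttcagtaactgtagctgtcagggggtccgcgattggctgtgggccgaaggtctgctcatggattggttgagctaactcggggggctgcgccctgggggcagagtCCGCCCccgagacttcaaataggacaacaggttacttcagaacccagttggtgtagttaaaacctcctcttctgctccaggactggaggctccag
Mfsd2a, a transporter of lysophosphatidylcholine that carries docosahexaenoic acid (chr4:122961139-122961438, minus strand), held neither.
Mfsd2a: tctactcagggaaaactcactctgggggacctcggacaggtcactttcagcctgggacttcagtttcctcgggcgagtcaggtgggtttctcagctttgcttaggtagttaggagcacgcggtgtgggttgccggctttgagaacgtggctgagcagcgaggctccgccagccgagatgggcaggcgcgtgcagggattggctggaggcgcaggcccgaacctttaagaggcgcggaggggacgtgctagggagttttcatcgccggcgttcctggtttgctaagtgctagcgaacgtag
Slco1a4, an organic anion transporter of the barrier (chr6:141856171-141856470, minus strand), also held neither.
Slco1a4: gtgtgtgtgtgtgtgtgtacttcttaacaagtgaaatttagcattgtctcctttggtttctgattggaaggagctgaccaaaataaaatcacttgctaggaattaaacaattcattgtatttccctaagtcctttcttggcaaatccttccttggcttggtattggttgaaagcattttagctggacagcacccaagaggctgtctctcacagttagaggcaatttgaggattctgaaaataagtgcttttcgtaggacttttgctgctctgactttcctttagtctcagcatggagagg
Of the 22 matched genes, 3 held the ETS motif in a window (Flt1, Egfl7 and Emcn) and 10 held a GC box. Among all 32851 promoter windows of the same length, 8.15% held the ETS motif and 35.7% the GC box. The 22 genes have 27 windows, and a gene was counted if any of its windows held the motif. Shares over all windows are per window, so the 2 are not on the same unit. The SOX core ACAATG, sought on both strands like the rest, was in windows of 2 genes, Slco1a4 and Erg (12.6% of all windows), the TATA box TATAAA in 5 (13.6%), the forkhead core TGTTTAC in 1, Abcb1a (3.65%), and the CArG box of smooth muscle genes in 1, Myl9 (1.63%).

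The 3 regions took different courses over the first 2 weeks. Olfactory bulb means were highest at P14 for 31 of the 34 genes (not Acta2, Higd1b and Tagln). Hippocampal means were highest at P7 for 30 (not Bsg, Mfsd2a, Slco1a4 and Tagln), and in the cortex few genes were called. Calls, for which "rose" and "fell" are used, are from limma on log2(normalized count + 1), over genes with a table mean of at least 10 and with p adjusted over all genes tested, and a difference on this scale understates the change of low genes. Of the 34 genes, 14 passed that minimum in all 6 tables, 12 in some and 8 in none (Tie1, Ly6a, Egfl7, Sox18, Foxq1, Kcnj8, Higd1b and Tagln). Because these are bulk libraries, fewer vascular cells and less RNA per vascular cell cannot be told apart.

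From P1 to P14 in the olfactory bulb, 21 of the 23 genes above the filter rose and 0 fell, against 24.8% of all tested genes that rose. Their median log2 difference was 3.81, where that of all tested genes was -0.24. Without the filter, 26 of 34 rose (background 15.7%). Every P14 library was above every P1 library for 25 of the 34 genes, against 18.0% of all genes with a read. Between P1 and P7, 8 genes rose (background 7.59%), and between P7 and P14, 16 rose (background 20.4%). For 25 genes the P7 libraries already lay above all P1 libraries, against 21.1% of all genes with a read. Without the filter, 18 rose (background 12.3%) and 2 fell (background 23.7%) from P7 to P14. The 2 genes above the filter that were not called from P1 to P14, Sox17 and Emcn, had adjusted p of 0.055 and 0.080 (limma). Since a high P14 level helped a gene to pass the filter, these counts are a description.

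Most hippocampal vascular genes had their highest mean at P7. Between P1 and P7, 7 of the 18 genes above the filter rose (Slco1a4, Cldn5, Eng, Tek, Pecam1, Abcc9 and Cd34; background 11.2%) and none fell, and the median log2 difference was 2.34 against -0.03 over all tested genes. The P7 libraries lay above all P1 libraries for 26 of 34 genes, against 18.9% of all genes. Between P7 and P14, 13 fell (background 17.7%) and 1 rose, Mfsd2a (background 12.5%). The median log2 difference was -3.66, or -3.35 with Cldn5, which had no read at P14, set at its bound of 3 reads per library, against -0.19 over all tested genes. Without the filter 21 of 34 fell (background 18.0%), and for 23 of 34 every P14 library lay below every P7 library, against 24.2% of all genes. Over the whole span from P1 to P14, 4 fell (Kdr, Abcc9, Foxc1 and Cd34; background 28.5%) and 3 rose (Slco1a4, Mfsd2a and Bsg; background 21.0%). The number called at P7 against P1 was 14 with edgeR and 13 with DESeq2 on the recovered reads, 1 with a pseudocount of 0.1, and 0 to 3 when any 1 of the 6 libraries was left out, with 0 without P7 replicate 1. A high P7 level helped genes such as Cldn5 and Cd34 to pass the filter, so these counts and medians too are a description.

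Cortical vascular genes gave few calls. From P1 to P7, 3 of 24 genes above the filter rose (Mfsd2a, Bsg and Pdgfrb; background 15.6%) and 0 fell. From P7 to P14, 2 rose (Mfsd2a and Bsg; background 18.6%) and 1 fell (Itm2a; background 31.3%), a call that TMM scaling and edgeR did not keep. From P1 to P14, 5 rose (Mfsd2a, Slco1a4, Ly6c1, Bsg and Pdgfrb; background 24.0%) and 1 fell (Erg; background 40.3%). The median log2 difference of the 24 genes from P1 to P14 was 0.25, against -0.27 over all tested genes, and TMM scaling moved the latter to 0.01. Replicate 1 at P1 was the lowest of its group for 32 of 34 genes, against 36.7% of all genes above the filter. Replicate 3 at P14 was the highest of its group for 31, against 26.2%. Without P14 replicate 3, 8 of 23 genes were called from P7 to P14, 2 rising and 6 falling. Of all 11855 genes tested in that run, 2087 rose and 3696 fell. Without P1 replicate 1, 9 of 24 were called from P1 to P14, 2 rising and 7 falling in place of 5 and 1. Of all 11763 genes tested there, 2610 rose and 4348 fell. Neither count of falling vascular genes was above the share of all genes. Without P1 replicate 3, 7 of 23 rose from P1 to P7, against 1723 of all 11775 tested genes. Without P1 replicate 1 or P7 replicate 1, 1 did, against 1552 of 11763 and 1554 of 11812.

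**Figure D1:**
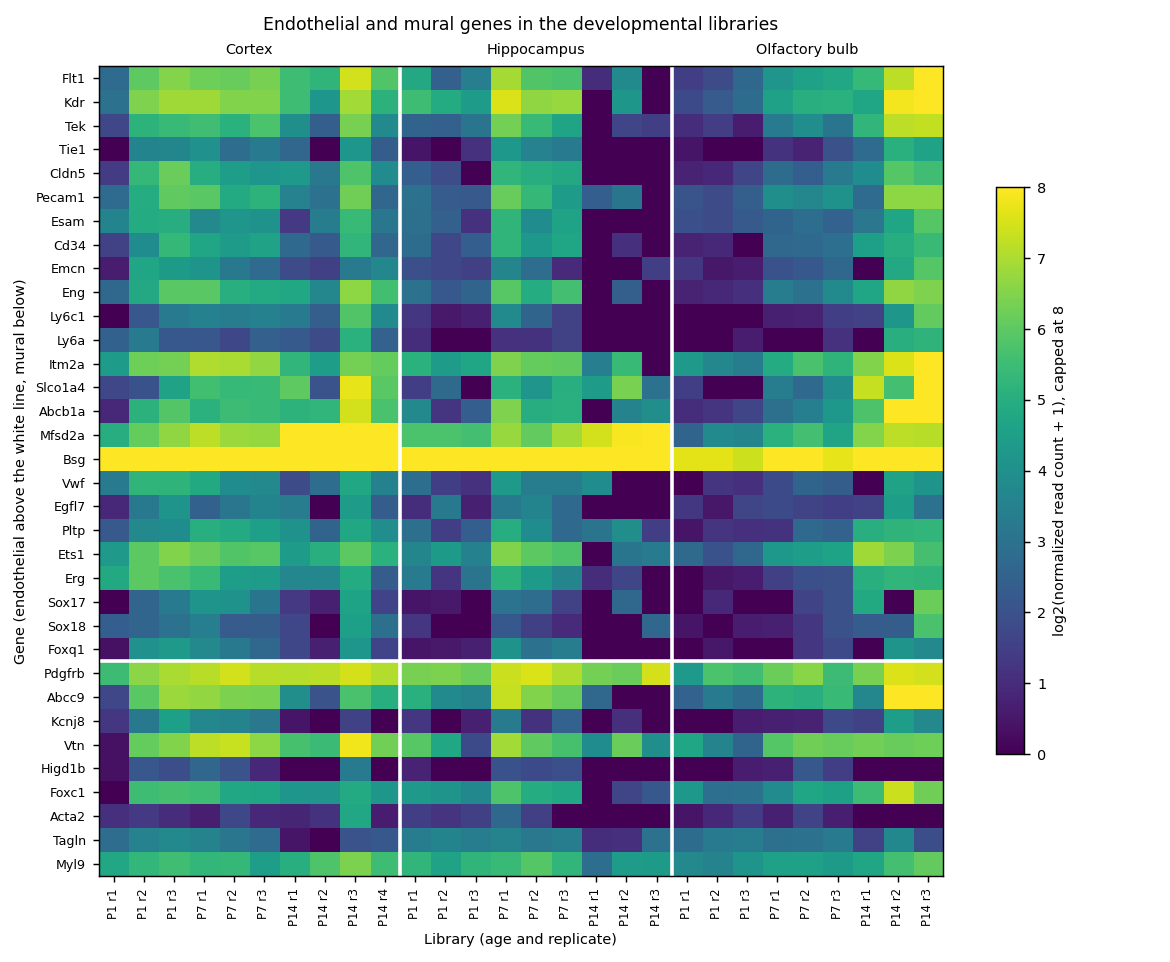
Each row is 1 of the 34 genes and each column 1 of the 28 developmental libraries (age and replicate number, r), and colour gives log2(normalized read count + 1), capped at 8. Hippocampus P14 columns are dark for most genes and bright for Mfsd2a, Bsg and Pdgfrb, olfactory bulb columns brighten from P1 to P14, and cortex P1 replicate 1 is dark and cortex P14 replicate 3 bright beside their groups.

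The receptor tyrosine kinases were Flt1 and Kdr, receptors of vascular endothelial growth factor, Tek (Tie2), the angiopoietin receptor, and its relative Tie1. Tek counts in the olfactory bulb were 1.08, 1.76 and 0.552 at P1, 8.60, 14.3 and 7.71 at P7 and 37.8, 147 and 153 at P14. All 3 ages were separate, and Tek rose from P1 to P14 (log2 fold change 5.53, SE 0.60, limma adjusted p = 1.9e-05). Flt1 there was 1.79, 2.64 and 5.52 at P1, 17.2, 22.9 and 26.7 at P7 and 39.8, 147 and 319 at P14, again with no overlap and with the widest spread at P14 (log2 fold change 4.95, SE 0.66, limma adjusted p = 8.8e-05). Kdr rose with them, from 2.51, 3.96 and 6.07 to 25.8, 230.2 and 346 (log2 fold change 4.70, SE 0.78). P14 replicate 1 held the low value of each receptor, and its Kdr lay inside the P7 range of 22.7 to 33.2.

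In the hippocampus Kdr was 45.2, 29.4 and 20.3 at P1, 192, 100.1 and 108 at P7 and 0, 17.6 and 0 at P14. Every P7 library stood above every P1 library, and 2 of the 3 P14 libraries held no Kdr read (log2 fold change -5.60, SE 0.95, limma adjusted p = 0.0013). Flt1 fell from 119, 55.7 and 51.1 to 1.07, 13.2 and 0 (log2 fold change -4.52, SE 0.94, limma adjusted p = 0.0041), and Tek from 78.5, 41.3 and 24.6 to 0, 2.21 and 1.79 (log2 fold change -4.41, SE 0.68). Tie1 was 18.1, 10.6 and 8.52 at P7 and had no read in any P14 library, which puts it at least 3.13-fold lower against 3 reads per library. The highest P14 value of both Flt1 and Kdr was in replicate 2. Cortical receptor values overlapped between ages, and none of Flt1, Kdr and Tek was called. Kdr was 7.10, 85.9 and 114 at P1, 114, 88.1 and 88.4 at P7 and 44.6, 17.6, 118 and 34.3 at P14 (limma adjusted p = 0.99 for P14 against P1).

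**Figure D2:**
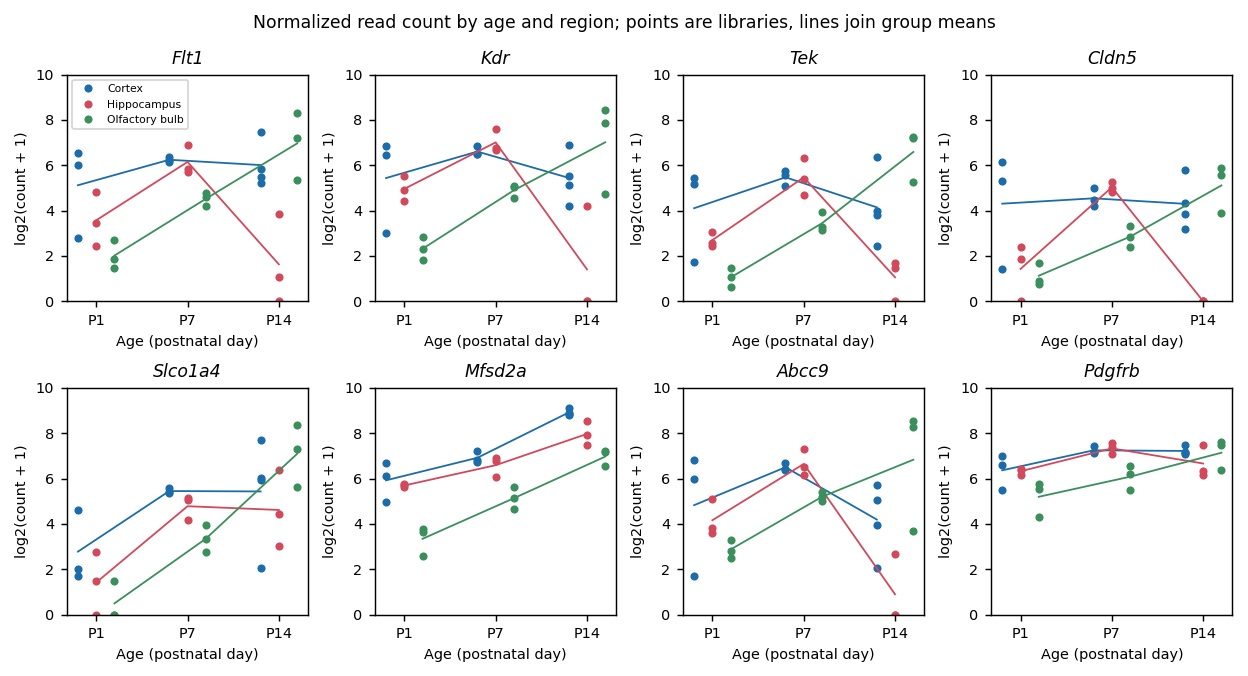
Points are the normalized read counts of single libraries as log2(count + 1) at P1, P7 and P14 in cortex (blue), hippocampus (red) and olfactory bulb (green), and lines join group means, for 8 genes. The hippocampus falls from P7 to P14 for Flt1, Kdr, Tek, Cldn5 and Abcc9 while Mfsd2a rises, and the olfactory bulb is higher at P14 than at P1 in all 8 panels.

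Junction and surface proteins were 9 of the genes: Cldn5, Pecam1, Esam, Cd34, Emcn, Eng, Ly6c1, Ly6a and Itm2a. Cldn5 in the hippocampus was 4.27, 2.67 and 0 at P1, 37.4, 30.7 and 27.4 at P7 and 0 in all 3 P14 libraries. At the P7 level the P14 libraries would have held 17.8 to 29.6 reads each, and the fall was at least 8.02-fold against 3 reads per library (log2 fold change -5.03, SE 0.74, limma adjusted p = 5.2e-04, a fitted value that depends on the pseudocount). Eng (endoglin, a co-receptor of transforming growth factor beta) went from 59.2, 30.03 and 47.3 to 0, 4.41 and 0, and Cd34, a sialomucin of capillary endothelium, from 36.8, 18.1 and 25.5 to 0, 1.10 and 0. Both fell, with log2 fold changes of -4.68 (SE 0.75) and -4.39 (SE 0.66). Pecam1, the platelet endothelial adhesion molecule, fell as well (log2 fold change -3.44, SE 0.82, limma adjusted p = 0.0090). Esam, an adhesion molecule of endothelial contacts that was under the filter in the hippocampus, was 36.8, 13.8 and 23.7 at P7 and 0 in each P14 library.

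In the olfactory bulb 6 of the 7 junction and surface genes above the filter rose from P1 to P14. Cldn5 was 0.717, 0.881 and 2.21 at P1, 6.14, 4.29 and 8.90 at P7 and 13.9, 57.9 and 45.8 at P14, with the ages separate (log2 fold change 3.99, SE 0.64, limma adjusted p = 3.3e-04). Eng rose from 0.717, 0.881 and 1.10 to 25.8, 101 and 87.5 (log2 fold change 5.04, SE 0.58, limma adjusted p = 3.0e-05). Itm2a, an integral membrane protein enriched in brain endothelium and also made in other tissues, had the second highest level per exon length of the 34 genes in the developmental olfactory bulb table. Its counts were 19.0, 11.9 and 9.38 at P1, 29.5, 51.5 and 35.6 at P7 and 89.4, 192 and 275 at P14 (log2 fold change 3.60, SE 0.44, limma adjusted p = 4.3e-05), and no ages overlapped. Cortical Itm2a was 132, 125 and 104 at P7 and 37.5, 20.8, 80.1 and 67.5 at P14, a separate and lower group (log2 fold change -1.38, SE 0.47, limma adjusted p = 0.028). Ly6c1, a surface antigen of the Ly6 family and under the filter here, had no read at P1 in the olfactory bulb and was 1.99, 17.9 and 66.6 at P14, at least 21.4-fold higher against 3 reads per P1 library. That bound rests on P14 replicate 3, without which it is 7.37-fold, and the value in replicate 1 is a single read. Ly6a, its relative, had at most 0.552 at P1 and was 0, 31.7 and 36.1 at P14. Of the 50-base exon windows of Ly6c1 32.8% also occur in other genes, mostly Ly6c2, and 19.0% of those of Ly6a occur elsewhere, mostly in Ly6c1, so their values are uncertain.

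The transporters and barrier genes were Bsg, Mfsd2a, Slco1a4 and Abcb1a. Bsg (basigin, a chaperone of monocarboxylate transporters made by many cell types) was the highest of the 34 genes per exon length in all 6 tables. Its counts in the cortex were 275, 356 and 404 at P1, 492, 483 and 459.5 at P7 and 774, 758, 933 and 807 at P14. Each age lay above the one before it (log2 fold change 1.26, SE 0.12, limma adjusted p = 1.1e-06). Hippocampal Bsg was 283, 312 and 271 at P1, 447, 404 and 461 at P7 and 533, 385 and 693 at P14, higher at P14 than at P1 (log2 fold change 0.85, SE 0.19, limma adjusted p = 0.0034) and overlapping between P7 and P14. Its olfactory bulb counts were 204, 204 and 167 at P1, 267, 252 and 207 at P7 and 461, 997 and 1008 at P14, which was above both other ages (log2 fold change 2.02, SE 0.27, limma adjusted p = 9.2e-05).

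Mfsd2a rose in all 3 regions. The cortical counts were 30.4, 68.0 and 102 at P1, 147, 111 and 106 at P7 and 546, 466, 466 and 449 at P14, with every later library above every earlier one (log2 fold change 2.99, SE 0.29, limma adjusted p = 9.6e-07). In the hippocampus they were 52.7, 51.7 and 47.9 at P1, 109, 66.9 and 118 at P7 and 175, 239 and 369 at P14, again with the ages separate (log2 fold change 2.27, SE 0.31, limma adjusted p = 9.0e-05). Of the 18 hippocampal genes above the filter it was the one that rose from P7 to P14 (log2 fold change 1.38, SE 0.31, limma adjusted p = 0.0061), in libraries where Cldn5, Tie1 and Esam had no read. In those P14 libraries the endothelial genes other than Bsg and Mfsd2a held 54, 192 and 23 reads together. The lowest of these sums was in the library with the highest Mfsd2a. Which cells held the Mfsd2a reads was not tested. Olfactory bulb Mfsd2a went from 5.02, 12.8 and 11.6 to 91.4, 147 and 142 (log2 fold change 3.62, SE 0.41, limma adjusted p = 2.8e-05). On the scale of level per exon length, Mfsd2a at P14 was 258 ± 24.0 (SD, n = 4) in the cortex, 162 ± 58.7 (SD, n = 3) in the hippocampus and 96.5 ± 24.7 (SD, n = 3) in the olfactory bulb, values set side by side without a test because the tables were scaled separately.

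Slco1a4 and Abcb1a (P-glycoprotein, the main drug efflux pump of the barrier) had the largest fitted rises of the genes above the filter in the olfactory bulb. Slco1a4 was 1.79, 0 and 0 at P1, 9.22, 5.72 and 14.2 at P7 and 157, 48.2 and 325 at P14 (log2 fold change 6.60, SE 0.72, limma adjusted p = 2.1e-05). Abcb1a was 1.08, 1.32 and 2.21 at P1, 6.76, 10.01 and 18.4 at P7 and 53.7, 363 and 285 at P14 (log2 fold change 6.16, SE 0.68, limma adjusted p = 2.2e-05). Neither gene's ages overlapped. Abcb1a shares 17.6% of its 50-base exon windows with other genes, mostly its copy Abcb1b, so part of its value is uncertain. Hippocampal Slco1a4 was 1.78, 5.79 and 0 at P1, 33.8, 16.9 and 32.2 at P7 and 20.4, 82.7 and 7.17 at P14, so it rose from P1 to P7 (log2 fold change 3.37, SE 0.90, limma adjusted p = 0.022) and from P1 to P14 (log2 fold change 3.20, SE 0.90), with P14 values on both sides of those at P7. Cortical Slco1a4 was 2.27, 3.02 and 23.3 at P1 and 63.6, 3.14, 208 and 60.7 at P14 (log2 fold change 2.66, SE 1.01, limma adjusted p = 0.034), and P14 replicate 2 fell inside the P1 range.

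**Figure D3:**
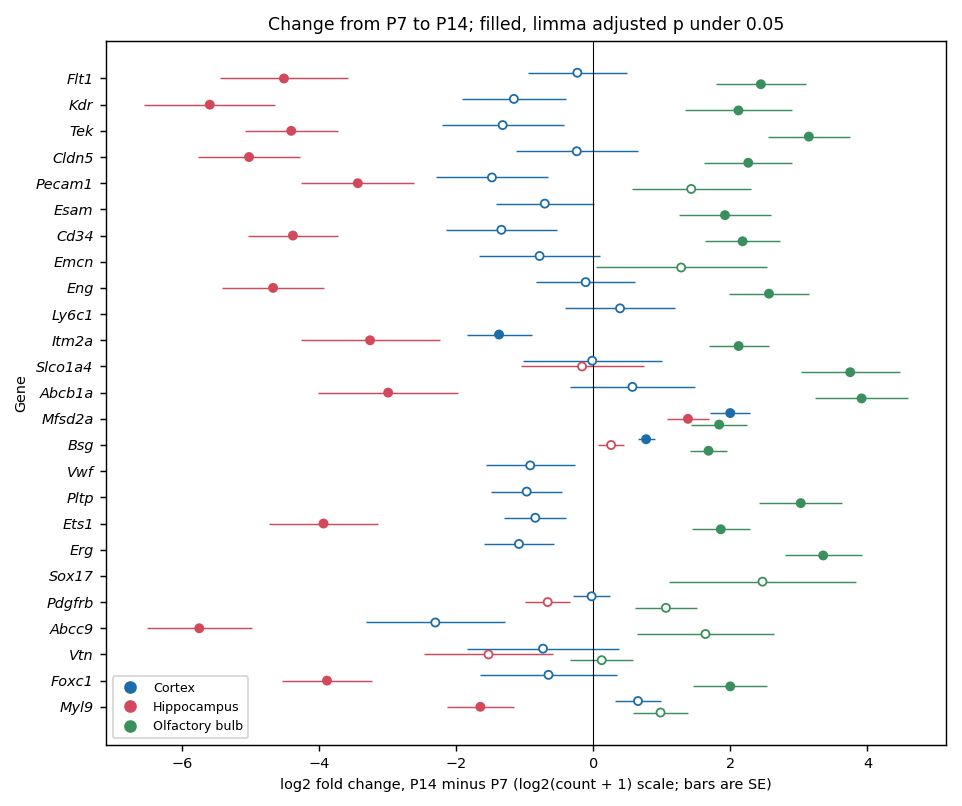
Points give the fitted log2 fold change from P7 to P14 for the genes above the filter in each region, bars the standard error, and filled points the limma calls at adjusted p under 0.05. Most hippocampal points (red) lie left of 0 and all olfactory bulb points (green) right of it, and Mfsd2a lies right of 0 in all 3 regions.

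The secreted proteins were Vwf, Egfl7 and Pltp. Vwf, the clotting factor stored in endothelial granules, was 8.81, 36.8 and 36.2 at P1, 28.3, 13.9 and 12.7 at P7 and 2.65, 6.29, 26.8 and 10.4 at P14 in the cortex, where the ages overlapped and no comparison was called (log2 fold change -1.32, SE 0.65, limma adjusted p = 0.089). Egfl7, an endothelial matrix protein, was under the filter in all 6 tables and at most 20.7 in the developmental libraries, and its exons overlap Agpat2 on the opposite strand. Pltp, phospholipid transfer protein, rose in the olfactory bulb from 0.358, 1.32 and 1.10 to 31.8, 35.8 and 37.5 (log2 fold change 4.26, SE 0.60, limma adjusted p = 1.4e-04). Its exons overlap Ctsa on the opposite strand, with a longest stretch of 311 bases beside 2562 exon bases of Pltp. No source used here says whether strand was counted, so reads in shared stretches cannot be told apart. Exons of Foxq1, Sox17, Tagln and Abcb1a also overlap genes on the opposite strand, by up to 3200, 804, 645 and 452 bases. For Abcc9, Cd34 and Eng the longest such stretches are 158, 148 and 61 bases.

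Among the 5 endothelial transcription factors, Ets1 and Erg of the ETS family passed the filter in 6 and 4 tables. Olfactory bulb Ets1 was 5.74, 3.08 and 5.52 at P1, 18.4, 20.7 and 23.7 at P7 and 115, 85.5 and 48.6 at P14 (log2 fold change 3.81, SE 0.42, limma adjusted p = 2.3e-05), while Erg was 0, 0.440 and 0.552 at P1 and 31.8, 37.2 and 36.1 at P14 (log2 fold change 4.78, SE 0.56, limma adjusted p = 3.4e-05). Both rose with no overlap. Ets1 fell in the hippocampus, from 88.8, 62.6 and 53.9 to 0, 7.72 and 8.96 (log2 fold change -3.94, SE 0.79, limma adjusted p = 0.0034). In the cortex Erg was 27.8, 62.5 and 50.5 at P1, 41.5, 20.9 and 20.4 at P7 and 12.1, 11.9, 29.3 and 4.15 at P14, so it fell from P1 to P14 (log2 fold change -1.83, SE 0.51, limma adjusted p = 0.0060), although P14 replicate 3 was above P1 replicate 1. Sox17, Sox18 and Foxq1, factors of endothelial identity and barrier genes, had their highest developmental counts at 72.2, 51.4 and 18.5. Sox17 in the olfactory bulb was 0, 0.881 and 0 at P1 and 27.8, 0 and 72.2 at P14, with a P14 library inside the P1 range.

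Pericyte genes divided. Pdgfrb, the receptor that recruits pericytes, was read in every library. In the hippocampus it was 80.8, 85.1 and 71.3 at P1, 165, 187 and 132 at P7 and 79.5, 70.6 and 179 at P14, and was not called between P14 and either earlier age (limma adjusted p = 0.15 against P7). Abcc9, a subunit of the vascular ATP-sensitive potassium channel, went from 33.1, 12.9 and 11.1 at P1 through 155, 89.5 and 70.0 at P7 to 5.37, 0 and 0 at P14. Of the 18 genes above the filter it had the smallest adjusted p for the fall after P7 (log2 fold change -5.75, SE 0.77, limma adjusted p = 2.8e-04) and was also lower at P14 than at P1 (log2 fold change -3.27, SE 0.77, limma adjusted p = 0.0042). Both genes mark pericytes, and in the 2 P14 libraries with no Abcc9 read Pdgfrb was 70.6 and 179. The difference between the pair was not tested. In the cortex Pdgfrb was 44.0, 96.5 and 126 at P1, 139.6, 173 and 141 at P7 and 138, 145, 179 and 133 at P14, below both later ages at P1 (log2 fold change 0.85, SE 0.27, limma adjusted p = 0.013). Olfactory bulb Pdgfrb was 18.6, 52.4 and 45.8 at P1 and 81.5, 192 and 175 at P14 (log2 fold change 1.94, SE 0.46, limma adjusted p = 0.0038), and Abcc9 there went from 4.66, 8.81 and 6.07 to 11.9, 365 and 309.6 (log2 fold change 3.96, SE 1.00, limma adjusted p = 0.0060).

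Vtn (vitronectin, a matrix protein secreted by brain pericytes) had the third highest level per exon length in the cortex and olfactory bulb developmental tables. Cortical Vtn was 0.284, 67.5 and 89.3 at P1, 146, 159 and 98.3 at P7 and 50.3, 42.8, 227 and 77.9 at P14. Every P7 library lay above every P1 library, and P14 values overlapped both other ages. No comparison passed the test (limma adjusted p = 0.13 for P14 against P1). Olfactory bulb Vtn was 25.5, 11.0 and 4.96 at P1, 58.4, 75.8 and 68.8 at P7 and 77.5, 68.9 and 73.6 at P14, so P7 and P14 overlapped above P1 (log2 fold change 2.46, SE 0.46, limma adjusted p = 0.0068 for P7 against P1). Foxc1, a forkhead factor of mural and meningeal cells, rose in the olfactory bulb (log2 fold change 2.96, SE 0.54, limma adjusted p = 7.9e-04) and fell in the hippocampus after P7 (log2 fold change -3.89, SE 0.66, limma adjusted p = 0.0012). Kcnj8, the pore of the channel that Abcc9 joins, and Higd1b, a pericyte marker, were under the filter in every table, and their highest counts over the developmental groups were 22.1 and 8.51.

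Of the contractile genes of smooth muscle, Acta2 (smooth muscle actin) and Tagln (transgelin) had developmental counts of at most 26.2 and 12.6. Myl9, a regulatory myosin light chain made in many cells, was the third highest gene per exon length in the hippocampal developmental table. Its counts there were 37.4, 23.2 and 36.2 at P1, 42.3, 58.2 and 37.8 at P7 and 6.45, 19.8 and 19.7 at P14, and P14 lay below both other ages (log2 fold change -1.65, SE 0.49, limma adjusted p = 0.026 against P7). Olfactory bulb Myl9 rose from 12.5, 11.0 and 16.5 to 25.8, 48.2 and 66.6 (log2 fold change 1.66, SE 0.41, limma adjusted p = 0.0051).

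Single libraries weighed on these counts. In hippocampus P14 libraries, 20, 13 and 20 of the 34 genes had no read, against 0, 0 and 1 at P7, at depths of 2539583 to 4248087 reads for P14 and 4002881 to 5542610 for P7. The median over the 25 endothelial genes was 0, 2.21 and 0 at P14, against 36.8, 18.1 and 23.7 at P7. Replicate 2 had the fewest genes at 0, and without it 14 genes were called from P1 to P14, 3 rising and 11 falling, in place of 7. Of all 11610 genes tested in that run, 2565 rose and 3699 fell. Without P14 replicate 3, 11 vascular genes were called, against 6024 of all 11637 tested genes. The 3 P7 libraries each mattered for the fall after P7, since leaving out any 1 of them brought the 14 calls to 8 or 9. In the olfactory bulb, P14 replicate 1 was the shallowest library, with 1773226 reads. It was the lowest of its group for 28 of 34 genes, against 33.4% of all genes above the filter. Without it 23 vascular genes rose from P1 to P14 and 22 from P7 to P14. Of all 11504 genes tested in that run, 2959 and 2443 rose. From P1 to P7 the 8 olfactory bulb calls became 1 to 4 when any 1 of the 6 libraries was left out.

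**Figure D4:**
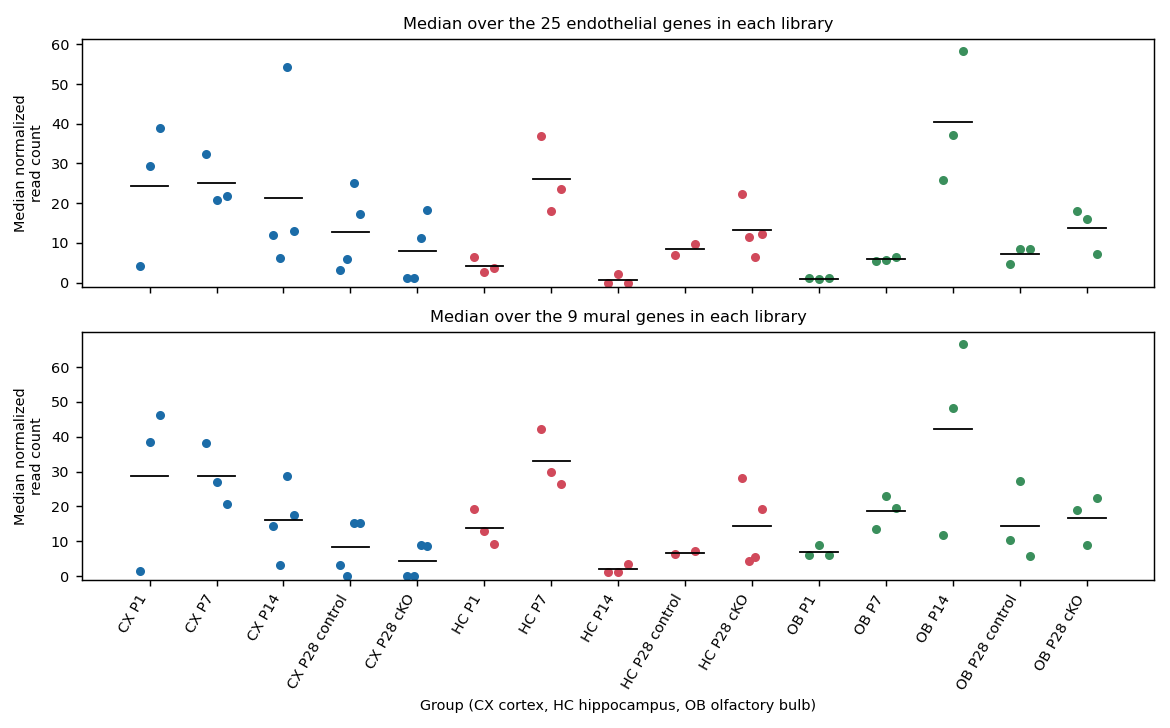
Each point is 1 library, placed by the median normalized read count over the 25 endothelial genes (top) or the 9 mural genes (bottom), for all 15 groups, and short lines are group means. Hippocampus P14 sits at 0 to 2.21 in the top panel, olfactory bulb rises from at most 1.10 at P1 to 25.8 to 58.3 at P14, and cortex P14 spreads from 6.29 to 54.2.

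Other genes of vessels were read as whole lists. Of all tested genes in the olfactory bulb, 24.8% rose and 3604 of 11490 fell from P1 to P14. In the hippocampus 11.2% rose from P1 to P7, and 17.7% fell and 12.5% rose from P7 to P14. In the cortex 24.0% rose and 40.3% fell from P1 to P14. Of 35 other endothelial and barrier genes, 27 passed the filter in the olfactory bulb, where 23 rose and 1 fell from P1 to P14, with a median log2 difference of 2.66. Adgrf5, an endothelial adhesion receptor, rose by 5.89 on the log2 scale and Slc16a1, a lactate transporter, by 3.53. In the hippocampus 13 of 24 rose from P1 to P7, and 13 fell and 2 rose from P7 to P14, with a median of -1.17. Cdh5, the cadherin of endothelial contacts, was 67.2 ± 28.2 (SD, n = 3) at P7 and 4.04 ± 7.002 (SD, n = 3) at P14 (log2 fold change -4.78, SE 0.97, limma adjusted p = 0.0036). The 2 that rose were Rgcc (log2 fold change 1.54) and Tjp1 (0.63), the latter a scaffold protein of tight junctions in many cell types. In the cortex, 9 of 29 rose, near the share of all tested genes, and 2 fell from P1 to P14. Among 20 other mural genes, 5 of 11 fell and 0 rose from P7 to P14 in the hippocampus, where Rgs5, a regulator of G protein signalling in pericytes, went from 233 ± 39.8 (SD, n = 3) to 39.3 ± 12.2 (SD, n = 3) (log2 fold change -2.58, SE 0.30, limma adjusted p = 1.1e-04). In the olfactory bulb 6 of 10 rose and 1 fell from P1 to P14, and Rgs5 went from 19.6 ± 4.55 (SD, n = 3) to 488 ± 319 (SD, n = 3).

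A list of 22 vessel-forming ligands, their receptors and barrier signals, includes several made by astrocytes. From P1 to P14 in the cortex, 9 of 19 rose (background 24.0%) and 1 fell (background 40.3%). In the hippocampus 9 of 18 rose (background 21.0%) and 3 fell (background 28.5%). In the olfactory bulb 12 of 17 rose (background 24.8%) and 2 fell (background 3604 of 11490 genes). Vegfa, the growth factor read by Kdr, was 96.9 ± 15.6 (SD, n = 3) at P1 and 395 ± 33.3 (SD, n = 4) at P14 in the cortex (log2 fold change 2.02, SE 0.13, limma adjusted p = 1.5e-08). Angpt1, the ligand of Tek, was 127 ± 11.7 (SD, n = 3) and 587 ± 46.8 (SD, n = 3) in the hippocampus (log2 fold change 2.20, SE 0.15, limma adjusted p = 4.1e-07). Apln, the apelin peptide, rose there as well (log2 fold change 6.43, SE 0.54, limma adjusted p = 1.9e-06), while its receptor Aplnr, an endothelial gene, fell from P7 to P14 (log2 fold change -5.21, SE 0.77, limma adjusted p = 5.2e-04).

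Markers of other cells were read beside the vascular genes. Of all tested genes in the hippocampus, 17.7% fell and 12.5% rose from P7 to P14, and 11.2% rose from P1 to P7. In the olfactory bulb 24.8% rose and 3604 of 11490 fell from P1 to P14. In the cortex 18.6% rose and 31.3% fell from P7 to P14. Small counts below, such as 2 of 7 or 2 of 10, are near these shares. From P7 to P14 in the hippocampus, 7 of 9 neuron genes fell and none rose, and their summed level per exon length was 312 to 613 at P7 and 69.3 to 84.3 at P14. Of the 10 fibroblast and meningeal genes 5 fell and none rose (414 to 503 at P7, 138 to 391 at P14, with 1 to 3 of the 10 at 0). Of 7 tested microglia and macrophage genes 2 fell, with sums of 198 to 908 at P7 and 118 to 794 at P14. Of 10 astrocyte genes 9 rose over the same interval, with sums of 17188 to 21898 and 59975 to 63444, and 4 of 4 tested oligodendrocyte genes rose, while 3 of 6 oligodendrocyte precursor genes fell. From P1 to P7 in the hippocampus all 10 astrocyte genes, 5 of 7 tested microglia genes (94.9 to 154 at P1), 4 of 6 precursor genes (282 to 425 at P1, 669 to 908 at P7) and 2 of 10 fibroblast and meningeal genes rose. In the olfactory bulb from P1 to P14 all 10 astrocyte genes rose, 6 of 9 neuron genes fell and 1 rose, and 2 of 10 fibroblast and meningeal genes rose (145 to 369 at P1, 714 to 1039 at P14). Also there 3 of 5 tested microglia genes (22.3 to 90.01 at P1, 169 to 268 at P14), 4 of 6 precursor genes (76.9 to 89.2 at P1, 737 to 854 at P14) and 4 of 4 tested oligodendrocyte genes rose. In the cortex from P7 to P14, 8 of 10 microglia genes and all 7 oligodendrocyte genes rose and 7 of 9 neuron genes fell. Blood genes summed to at most 25.9 per library in all developmental groups, and 4 to 6 of the 6 were at 0 in each. The part of these cells in the vascular differences was not tested.

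At P28 no vascular gene was called between Gabbr1 cKO and control libraries in any region. In the cortex 0 of 17 genes above the filter passed, where 1 of 10188 tested genes did (0.00982%), Gabbr1 itself. In the hippocampus 0 of 20 and in the olfactory bulb 0 of 19 passed, where no gene did by limma or edgeR (0.0% of 11639 and 0.0% of 11539) and 1 and 22 did by DESeq2. At an unadjusted p under 0.05 there were 2, 1 and 5 vascular genes in the 3 regions by limma, against 2.17%, 2.54% and 3.02% of all tested genes. No vascular gene was called by edgeR or DESeq2. Leaving out any 1 library, those with little Rn45s included, also gave 0. These comparisons had 2 to 4 libraries a group and wide spreads, so a missing call does not show that levels were alike. Groups that did not overlap were found for 0, 6 and 5 of the 34 genes in cortex, hippocampus and olfactory bulb, all with the cKO libraries higher, against 5.29% of all genes with a read in the hippocampus and 3.81% in the olfactory bulb.

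The median log2 difference, cKO minus control, was -0.72 over the 17 cortical genes, 0.86 over the 20 hippocampal genes and 0.55 over the 19 olfactory bulb genes, against 0.00, -0.04 and 0.02 over all tested genes. Cortical Slco1a4, with the smallest p of the 17 vascular genes tested there, was 39.1, 68.9, 231 and 155 in controls and 10.1, 10.5, 40.8 and 137 in cKO libraries (log2 fold change -1.78, SE 0.71, limma adjusted p = 1.00). The genotypes overlapped. Ets1 was 12.7, 9.34, 40.6 and 14.5 and 0, 0, 12.8 and 7.68 (log2 fold change -2.39, SE 1.09, limma adjusted p = 1.00). Pdgfrb was 89.8, 71.2, 143 and 145 in controls and 122, 147, 255 and 163 in cKO libraries (log2 fold change 0.62, SE 0.30, limma adjusted p = 1.00), so its values also overlapped. Mfsd2a was 116, 202, 255 and 303 and 184, 149, 267 and 301 (log2 fold change 0.07, SE 0.31, limma adjusted p = 1.00), and Bsg 661, 522, 557 and 501 and 701, 733, 686 and 479 (log2 fold change 0.20, SE 0.19, limma adjusted p = 1.00).

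Cortical P28 libraries differed by round of deposit, as told from the style of their labels. For 16 of 34 genes, 13 endothelial and 3 mural, all 3 later-round libraries lay above all 5 first-round libraries, against 9.18% of all genes, and for none did the reverse hold. Abcb1a in the later round was 156 and 67.8 in control replicates 3 and 4 and 95.9 in cKO replicate 4, and 0 to 39.2 in the first round. Itm2a was 54.7 to 98.7 in the later round and at most 19.98 in the first, and Slco1a4 137 to 231 against 10.1 to 68.9. Bsg overlapped, at 522 to 733 in the first round and 479 to 557 in the later. Within the first round the cKO minus control difference was below 0 for 11 of 17 genes above the filter, within the later round for 10, and over both for 12. For Slco1a4 it was -1.60 in the first round and -0.46 in the later, where the cKO group is 1 library. The rounds also differed in Rn45s, at 33.4% to 35.8% of reads in the first and 27.0% to 28.04% in the later, and in genes with a read, at 12100 to 13020 and 14107 to 15141. The part of these differences in the gene levels was not tested. With the round as a covariate 0 of 17 genes were called. First-round libraries carry no treatment label and later ones are labelled tamoxifen, so round and any difference in treatment cannot be told apart. Codes of first-round cortex libraries alternate with those of most P28 hippocampus and olfactory bulb libraries. Hippocampus cKO replicate 4 and olfactory bulb control replicate 3 and cKO replicate 3 have codes among the later-round cortex ones. Their Rn45s shares were 28.6%, 28.8% and 31.3%. The part of this split in their levels was not tested.

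**Figure D5:**
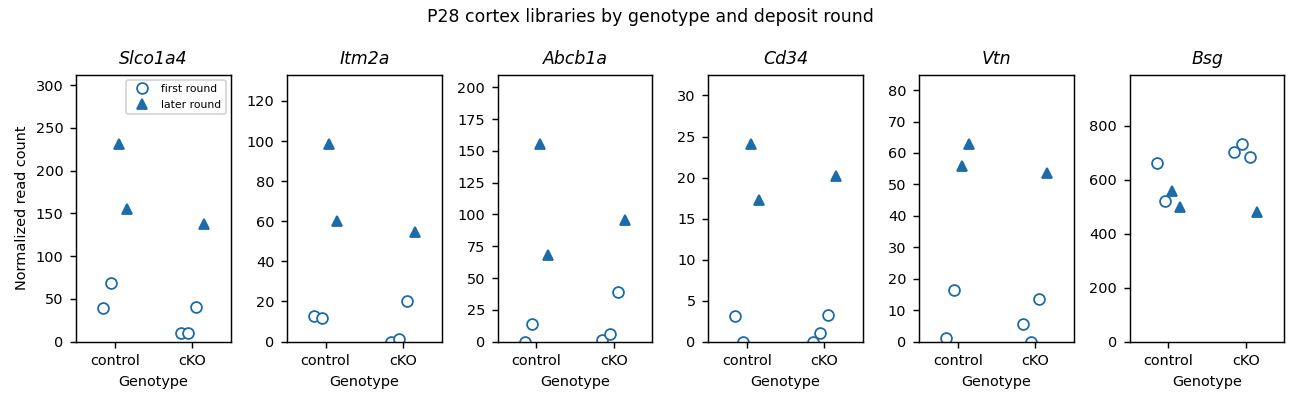
Normalized read counts of 6 genes in the 8 P28 cortex libraries, by genotype, with open circles for the first round of deposit and filled triangles for the later one. All 3 triangles lie above all 5 circles for Slco1a4, Itm2a, Abcb1a, Cd34 and Vtn, and Bsg does not share this order.

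In the P28 hippocampus Flt1 had the smallest p of the 20 genes tested, with 28.2 and 48.0 in controls and 142, 269, 86.2 and 71.6 in cKO libraries, and no overlap (log2 fold change 1.73, SE 0.56, limma adjusted p = 0.94). Pdgfrb was 90.7 and 159 and 201, 224, 191 and 188 (log2 fold change 0.73, SE 0.33, limma adjusted p = 0.94), and Abcb1a 22.7 and 30.2 and 78.4, 53.4, 32.7 and 57.0 (log2 fold change 0.99, SE 0.53, limma adjusted p = 0.94). All 3 were higher in every cKO library than in both controls, as were Ets1, Ly6a and Tie1, and none passed the test. Bsg, Slco1a4 and Mfsd2a were the highest per exon length. Bsg was 2088 and 1187 in controls and 1142, 280.2, 1228 and 1257 in cKO libraries (log2 fold change -0.91, SE 0.59, limma adjusted p = 0.94). Slco1a4 was 344 and 319 and 386, 123, 156 and 266 (log2 fold change -0.65, SE 0.45, limma adjusted p = 0.94). Mfsd2a was 53.2 and 104 and 109, 65.0, 135 and 233 (log2 fold change 0.71, SE 0.53, limma adjusted p = 0.94), and for all 3 the genotypes overlapped. The low Bsg value belonged to cKO replicate 2, the library with 0.594% Rn45s.

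Ttr (transthyretin), the leading gene of choroid plexus epithelium and chosen here after its values were seen, was 127692 and 61859.8 in the hippocampal controls and 46711, 9617, 64702 and 121474 in the cKO libraries. It was 7716, 6649 and 3855 at P14 in the hippocampus and at most 6.62 in the P28 olfactory bulb. Control replicate 1 held the highest and cKO replicate 2 the lowest hippocampal value of both Ttr and Bsg, and likewise of Pltp (141 and 59.6 and 67.8, 15.9, 61.5 and 53.9). The part of choroid plexus in these levels was not tested.

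In the P28 olfactory bulb Pdgfrb was 91.9, 78.3 and 168 in controls and 157, 275 and 197 in cKO libraries (log2 fold change 0.93, SE 0.36, limma adjusted p = 0.88). Slco1a4 was 12.6, 8.51 and 72.9 and 74.8, 114 and 50.7 (log2 fold change 1.85, SE 0.72, limma adjusted p = 0.88), and Bsg 478, 91.9 and 436 and 588, 651 and 615 (log2 fold change 1.202, SE 0.52, limma adjusted p = 0.88). Bsg had every cKO library above every control, as had Myl9, Ly6c1, Pltp and Emcn, and was lowest in control replicate 2, the library with 0.476% Rn45s. That library also held the highest Acta2 and Erg counts of the table, 98.7 and 139.6. Vtn, a pericyte gene, was second to Bsg per exon length, at 116, 206 and 380.4 and 215, 197 and 266 (log2 fold change 0.10, SE 0.39, limma adjusted p = 0.96). Mfsd2a was 93.0, 123 and 106 and 102, 62.7 and 188 (log2 fold change -0.00, SE 0.41, limma adjusted p = 1.00), with overlapping genotypes. The sign of both differences turned under DESeq2 and edgeR.

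Other vessel lists gave 0 calls at P28 as well: 0 of 22, 26 and 26 other endothelial and barrier genes, 0 of 8, 10 and 11 other mural genes and 0 of 16, 17 and 17 ligands and barrier signals in the 3 regions.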

How the data were processed

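RNA-seq of mouse cells labelled astrocytes was read from 6 deposited tables, 3 of development and 3 of P28, holding 48 libraries of 15 groups. A low-input kit was used on dissociated tissue, per the labels' protocols. Per the submitters' processing notes, FastQC, MultiQC, STAR 2.5.0a, DESeq2 1.20.0 and the mm10 build were used; the counting program, annotation and strand setting are not given in the sources used here. The deposited values are a signal that the authors made by dividing read counts by 1 size factor per library: in every library 100% of values were whole reads within 0.05 reads, which recovers the counts and the depth.

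The 34 genes and all other lists were chosen with earlier results of these data known. Here, limma 3.58.1 (R 4.3.3; eBayes with trend) was run on log2(value + 1) over genes with a table mean of at least 10, the 3 ages of a region or the 2 genotypes sharing a fit, with Benjamini-Hochberg adjustment over all genes tested and a threshold of 0.05. Tables were scaled separately, so no test crosses them. Named in full were, per region, the 3 genes with the highest level per exon length, and the 3 with the smallest p in P14 minus P1 and in cKO minus control, and others by range and count; from the other lists up to 4 with the smallest p were eligible. Genes described beyond that rule were chosen after their values were seen. The fits were repeated with pseudocounts of 0.1 and 8, without the filter or with a minimum of 100, with TMM scaling, with DESeq2 1.42.0 and edgeR 4.0.16 on the recovered reads, with round of deposit as a covariate, and without each library in turn. Promoter windows are from RefSeq, exon lengths from GENCODE. Bounds for genes with no read use 3 reads per library.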

Additional observations from a re-analysis of the deposited data

Results flagged for a closer look

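In groups of 4 or more libraries, 12 of 78 tests found a library far from the rest of its group. The tests are of genes read in the same libraries, so they are not independent, and the count is not set against chance. The share of all genes under the same rule is not given here. Cortex P14 replicate 3 was high for 7 genes. Its normalized counts were 173 for Abcb1a (next highest 50.9), 37.8 for Cd34 (5.67), 175 for Flt1 (56.1), 28.7 for Foxc1 (17.7), 55.8 for Ly6c1 (13.0), 75.4 for Pecam1 (10.6) and 80.7 for Tek (14.8). In P28 cortex controls, replicate 3 was high for Ets1 at 40.6 (next 14.5) and Pecam1 at 46.0 (21.1), and in cKO libraries replicate 1 for Myl9 at 38.1 (13.4). In P28 hippocampal cKO libraries, replicate 2, which had little Rn45s, was low for Bsg at 280 (next lowest 1142) and high for Erg at 60.7 (next highest 8.71).

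For the genes below, every P14 library lay below every library of the earlier age in hippocampus and above every one in olfactory bulb. The difference between regions was not tested, and the share of all genes that meet this rule is not given here. From P7 to P14 the fitted log2 differences in hippocampus and olfactory bulb were -4.52 and 2.44 for Flt1, -4.41 and 3.14 for Tek, -5.03 and 2.26 for Cldn5, -4.39 and 2.18 for Cd34, and -4.68 and 2.56 for Eng. They were -3.26 and 2.12 for Itm2a, -3.0 and 3.91 for Abcb1a, -3.94 and 1.86 for Ets1, -3.89 and 2.00 for Foxc1, and -1.65 and 0.98 for Myl9. Cldn5 had no read in any hippocampal P14 library, so its -5.03 depends on the pseudocount and only the bound given above holds. The olfactory bulb difference of Myl9 did not pass the test (limma adjusted p = 0.069). Itm2a also lay apart in opposite directions in cortex (-1.38) and olfactory bulb (2.12). From P1 to P14 they were -3.55 and 4.70 for Kdr, -1.64 and 5.53 for Tek, -1.95 and 4.40 for Cd34, -1.70 and 3.81 for Ets1, -3.27 and 3.96 for Abcc9, -2.77 and 2.96 for Foxc1, and -1.14 and 1.66 for Myl9. Of these, the hippocampal differences of Tek, Ets1 and Myl9 did not pass the test (limma adjusted p = 0.063, 0.095 and 0.074).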

How the results depend on the processing

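Of 85 calls of these genes over the 9 developmental comparisons, 54 held under every alternative run in which the gene was tested, and 0 reversed. A minimum mean of 100 tested only 13 of the 85, so most calls were not tried there. No called gene changed sign under TMM scaling, DESeq2 or edgeR, and uncalled genes with small differences did. A minimum mean of 100 left few of these genes to test and gave 3 calls in CX P14 minus P1, 3, 1 and 2 in HC P7 minus P1, P14 minus P7 and P14 minus P1, and 0, 1 and 1 in the same comparisons of OB. Without a filter, calls were 5 in CX P14 minus P7 and 22 in HC P14 minus P7. DESeq2 gave 5 in CX P7 minus P1, 13 in HC P7 minus P1 and 14 in OB P7 minus P1, and edgeR 14 in HC P7 minus P1. A pseudocount of 0.1 gave 1 in HC P7 minus P1, and one of 8 gave 13 there and 3 in OB P7 minus P1. Where not given above, the cause was not tested. Leaving out each library in turn gave, for P7 minus P1, P14 minus P7 and P14 minus P1, 1 to 7, 2 to 8 and 4 to 9 calls in CX, 0 to 3, 8 to 17 and 6 to 14 in HC, 1 to 4, 12 to 22 and 18 to 23 in OB, and 0 throughout at P28. All P28 alternatives gave 0. A single read was worth 0.252 to 1.99 normalized counts, so a value of a few counts rests on few reads. No paired analysis was possible because replicate numbers follow accession order only and no label ties a library of 1 age or genotype to one of another. Library codes at P28 run in sequence over the regions within a genotype; no label says whether regions share animals, and every test was within a region.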
